A study of Mus musculus with 6 samples.

Results

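The 5 genes described here are Atf4, Ddit3, Chac1, Dnajb9 and Herpud1, all known for their induction when protein folding in the endoplasmic reticulum (ER) fails or when translation is held back by stress. They were taken by symbol from the 389 genes analysed, with earlier results of these data known. Their presence among the 389 was therefore fixed. The data are RNA-seq of whole liver from Usp28 whole-body knockout mice (KO) and wild-type mice (WT), with 3 samples and 3 libraries in each group. Usp28 encodes an enzyme that removes ubiquitin from proteins. Both groups ate a methionine-choline deficient diet for 4 weeks from an age of 8 weeks, a feeding model of steatohepatitis, so the wild-type livers were diet-fed too. A knockout in every tissue does not separate an action in hepatocytes from one in other cells or organs. Nothing in the labels ties the samples to separate animals, so the p-values below reflect sample-to-sample spread that may be technical in part.

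The integrated stress response starts when kinases phosphorylate the initiation factor eIF2, which slows most translation and favours that of Atf4. One of these kinases senses stress in the ER and another a shortage of amino acids. ATF4 raises Ddit3 and Chac1, while the IRE1-XBP1 and ATF6 branches of the unfolded protein response raise ER chaperones and degradation factors such as Dnajb9 and Herpud1. ER stress has long been studied in fatty liver disease and in the methionine-choline deficient model.

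The 389 genes had been selected by the authors for a difference between KO and WT. In the authors' deposited table every one of them had a log2 fold change beyond 1 in size and an FDR of at most 0.0494. A KO to WT difference in the 5 genes is therefore a description of selected genes. Depth, recovered from counts and FPKM (fragments per kilobase of transcript, scaled to the depth of the library), was 20860000 to 22130000 reads in KO and 20350000 to 24160000 reads in WT. The 389 genes took 3.73% to 3.77% of the reads in KO, against 8.74%, 8.81% and 5.45% in WT replicates 1, 2 and 3, so WT replicate 3 stood apart from the other WT libraries. Usp28 was not among the genes analysed, and the genotype labels were not checked against it. Of 12 hepatocyte markers, Fabp1 alone was among the genes analysed, at 1195 to 1420 FPKM in KO and 1458 to 4741 FPKM in WT. In whole liver, fewer cells of a type and less RNA per cell cannot be told apart.

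All 5 genes were higher in KO liver than in WT liver. Chac1 was 12.2-fold higher, and the other 4 were 2.03 to 2.47-fold higher. The median log2 fold change of the 5 was 1.20, beside 1.31 for the 156 listed genes that were higher in KO and -1.10 for all 389. All 5 passed an adjusted p of 0.05 in edgeR's quasi-likelihood test, as did 388 of the 389 genes (99.7%), of which 155 (39.8%) were higher and 233 lower in KO. DESeq2 on the same depth also called all 5, with 156 of the 389 genes (40.1%) higher. Being called is therefore no result about the 5 genes. Scaling by TMM (trimmed mean of M values), which assumes that most of the selected genes are unchanged, moved the median gene by 0.60 on the log2 scale and gave 156 higher and 94 lower genes. Under it all 5 were higher in KO and passed, with log2 fold changes of 1.66 for Atf4, 1.84 for Ddit3, 4.23 for Chac1, 1.97 for Dnajb9 and 1.64 for Herpud1. The values that follow use the recovered depth. All KO values lay above all WT values in 4 of the 5, with Ddit3 as the exception. Among all 389 genes, 38.3% had all KO values above all WT values, and the groups did not overlap in 93.3%.

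**Figure D1:**
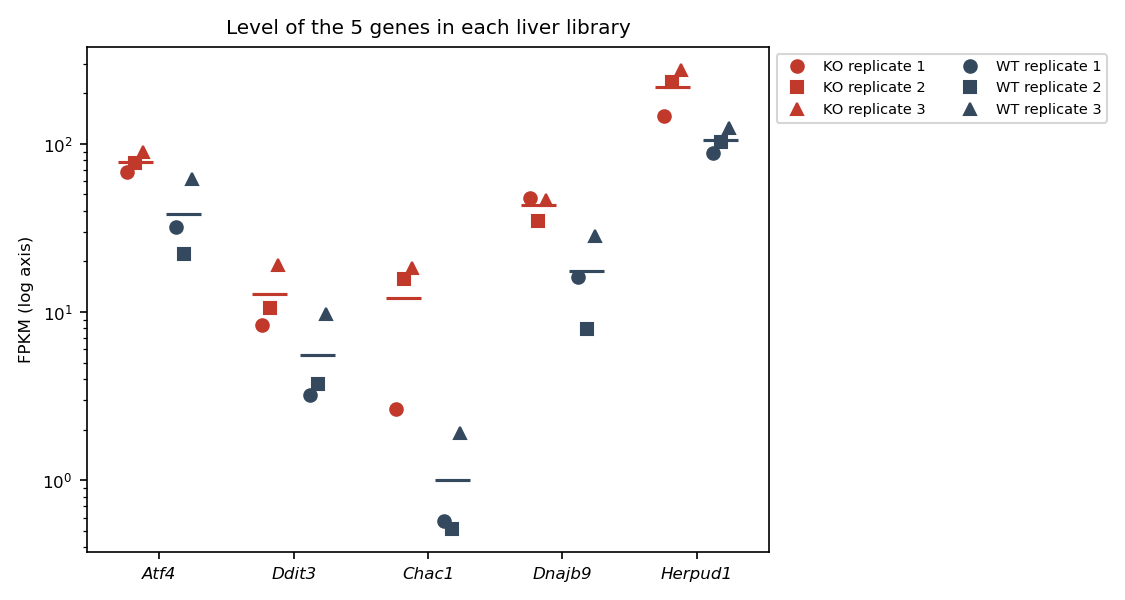
FPKM on a log axis for each of the 5 genes in the 3 KO libraries (left, red) and the 3 WT libraries (right, dark), with the marker shape giving the replicate number and the line the group mean. WT replicate 3 is the highest WT point for every gene, and for Ddit3 it lies above KO replicate 1.

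Atf4 (ENSMUSG00000042406, chromosome 15, 80255184 to 80257541, GRCm38) encodes the transcription factor at the centre of the integrated stress response. It stood at 68.18, 76.48 and 89.48 FPKM in KO replicates 1, 2 and 3, against 31.85, 22.13 and 61.51 FPKM in WT replicates 1, 2 and 3. The KO libraries were close together, and WT replicate 3 lay nearer to them than to the other WT libraries. The means were 78.0 ± 10.7 FPKM in KO and 38.5 ± 20.5 FPKM in WT (SD, n = 3 each). edgeR put the log2 fold change of KO over WT at 1.02 ± 0.39 (SE), with an adjusted p of 0.0271. Atf4 sat just inside the authors' selection: it had a log2 fold change of 1.02 in the authors' deposited table, where 13 of the 389 genes had one nearer to 0. It passed in 1 of the 6 fits that left out 1 library, the one without WT replicate 3 (1.53 on the log2 scale, adjusted p = 0.00073 in edgeR). In the other 5 the adjusted p lay between 0.0531 and 0.092. Because ATF4 protein is controlled largely through translation, the transcript level is not a measure of its activity.

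Ddit3 (ENSMUSG00000025408, chromosome 10, 127290774 to 127296288) encodes CHOP, a transcription factor that promotes cell death in lasting ER stress. It stood at 8.40, 10.64 and 19.16 FPKM in KO replicates 1, 2 and 3, against 3.22, 3.72 and 9.75 FPKM in WT replicates 1, 2 and 3. The groups overlapped, since WT replicate 3 was above KO replicate 1. Counts were 152, 208 and 359 reads in KO and 57, 80 and 170 in WT, so Ddit3 was measured on fewer reads than Atf4, which had at least 922 in every library. edgeR put the log2 fold change of KO over WT at 1.20 ± 0.48 (SE), with an adjusted p of 0.0314, and in the authors' deposited table Ddit3 ranked 355 of 389 by p-value. It passed in 2 of the 6 fits with a library left out, without KO replicate 1 and without WT replicate 3. Without KO replicate 3 it fell short by most, at 0.79 on the log2 scale (adjusted p = 0.16 in edgeR). In GENCODE M21 its exons overlap a second locus also named Ddit3 on the same strand, and Mars and Gm4189 on the opposite strand. The use of strand in counting is not given in the sources used here, so reads may be shared among these genes and the level of Ddit3 is uncertain.

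Chac1 (ENSMUSG00000027313, chromosome 2, 119351229 to 119354381) encodes an enzyme of the cytosol that degrades glutathione, and is a known target of ATF4 and CHOP. It stood at 2.64, 15.73 and 18.17 FPKM in KO replicates 1, 2 and 3, against 0.57, 0.51 and 1.92 FPKM in WT replicates 1, 2 and 3. Both groups held 1 library apart: KO replicate 1 was far below the other KO libraries, and WT replicate 3 was above the other WT libraries. The lowest KO library was 1.38 times the highest WT library. Counts were 90, 570 and 649 reads in KO, against 19, 20 and 64 in WT. edgeR put the log2 fold change of KO over WT at 3.61 ± 0.75 (SE), with an adjusted p of 0.00462, and Chac1 passed in all 6 fits with a library left out (3.20 to 4.50 on the log2 scale, adjusted p = 0.00198 to 0.0266 in edgeR). Its spread among KO libraries, a log2 SD of 1.52, was larger than that of any other of the 389 genes, whose median in KO was 0.23. The highest KO library stood at 6.88 times the lowest.

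The stretch before the start of Chac1 is shown because it holds a match to the C/EBP-ATF response element bound by ATF4 dimers (CARE, here TGATG, any base, AA, any base), on the strand opposite to the gene. It is RefSeq's, build GRCm38.p6, plus strand, chr2:119350992-119351228. The capitals mark, from left to right, TGACGCAA, the CARE match read on this strand, and CCACG.
Chac1: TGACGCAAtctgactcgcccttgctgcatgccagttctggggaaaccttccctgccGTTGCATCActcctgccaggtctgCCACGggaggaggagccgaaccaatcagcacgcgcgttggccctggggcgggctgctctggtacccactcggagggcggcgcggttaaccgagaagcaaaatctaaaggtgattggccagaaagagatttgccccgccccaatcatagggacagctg
Of the 250 bases before RefSeq's start of Chac1, the last 13 lie inside the gene as GENCODE annotates it and are not shown. Counted from RefSeq's start, and so with those 13 bases included, the CARE match lies 194 to 186 bases before it.

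Dnajb9 (ENSMUSG00000014905, chromosome 12, 44205559 to 44210326) encodes ERdj4, an ER co-chaperone and a known target of spliced XBP1. It stood at 47.83, 34.66 and 46.63 FPKM in KO replicates 1, 2 and 3, against 16.26, 7.92 and 28.51 FPKM in WT replicates 1, 2 and 3. All KO libraries were above all WT libraries, and WT replicate 3 was 2.36 times the mean of WT replicates 1 and 2. edgeR put the log2 fold change of KO over WT at 1.31 ± 0.43 (SE), with an adjusted p of 0.0167. Dnajb9 passed in 5 of the 6 fits with a library left out, and not without KO replicate 1 (1.22 on the log2 scale, adjusted p = 0.0531 in edgeR, the highest of the 6). KO replicate 1, the lowest KO library for the other 4 genes, was the highest for Dnajb9. A microRNA locus, Mir5627, overlaps its exons on the opposite strand.

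Herpud1 (ENSMUSG00000031770, chromosome 8, 94386438 to 94395377) encodes a membrane protein of the ER that assembles the machinery of ER-associated degradation. It stood at 145.86, 232.03 and 274.83 FPKM in KO replicates 1, 2 and 3, against 87.88, 103.11 and 123.66 FPKM in WT replicates 1, 2 and 3. The groups did not overlap, and the KO libraries were spread more widely (log2 SD 0.47) than the WT libraries (log2 SD 0.25). edgeR put the log2 fold change of KO over WT at 1.05 ± 0.34 (SE), with an adjusted p of 0.0153. Herpud1 passed in 3 of the 6 fits with a library left out, and missed the threshold without KO replicate 2 (adjusted p = 0.0535 in edgeR), KO replicate 3 (0.0729) or WT replicate 1 (0.0529). WT replicate 3 was 1.29 times the mean of the other WT libraries, against 2.28 to 3.56 times for the other 4 genes.

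The stretch before the start of Herpud1 is shown because it holds matches for more than 1 branch of the stress response. It is RefSeq's, build GRCm38.p6, plus strand, chr8:94386179-94386428. The capitals mark, from left to right, TGACGCAA joined to CCACG, a CARE match on the opposite strand, and an ER stress response element of the second kind (ERSE-II, ATTGG, any base, CCACG), which ATF6 and XBP1 are known to bind.
Herpud1: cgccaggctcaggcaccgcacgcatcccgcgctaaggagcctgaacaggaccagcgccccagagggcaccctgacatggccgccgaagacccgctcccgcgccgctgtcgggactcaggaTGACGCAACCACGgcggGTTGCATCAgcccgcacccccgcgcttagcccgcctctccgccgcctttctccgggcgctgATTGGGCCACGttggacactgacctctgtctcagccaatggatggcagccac
The CARE match lies 113 to 105 bases before RefSeq's start, and the ERSE-II match 52 to 42 bases before it.

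Promoters of all 5 genes were found in RefSeq, and the 250 bases before each start were searched on both strands, together with 32841 such windows of the genome. ERSE-II was present in 10 windows (0.0304%), and Herpud1 was the member that held it. CARE was present in 3.43% of windows, among them those of Chac1 and Herpud1. TGACGCAA, searched for after the sequences had been read, was present in 0.438% of windows and in those of Chac1, Herpud1 and Dnajb9. CCACG, which is also part of ERSE-II, was present in 28.4% of windows and in 38.3% of the 371 windows of listed genes. Those of Atf4, Chac1, Dnajb9 and Herpud1 held it. ERSE (CCAAT, 9 bases, CCACG) was present in 0.113% of windows and had no full match in those of the 5. The Herpud1 window ends in CCAAT, 9 bases and CCAC, so the base that would complete an ERSE lies outside it and was not searched. TGACGTGG (the core of the unfolded protein response element, 0.563%) and TGACGTCA (the cyclic AMP response element, 1.55%) had no match in the 5. The Ddit3 window held none of these motifs. RefSeq's window of Dnajb9 lies inside the longer gene that GENCODE annotates, so it is not shown. A match is a run of letters and not a measured binding site.

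On the FPKM scale, which is per transcript length, the order of levels was Herpud1, Atf4, Dnajb9, Ddit3 and Chac1 in 5 of the 6 libraries. In KO replicate 2, Chac1 (15.73 FPKM) stood above Ddit3 (10.64 FPKM). Mean levels in KO were 218, 78.0, 43.0, 12.7 and 12.2 FPKM in that order, against 105, 38.5, 17.6, 5.56 and 1.0 FPKM in WT. In KO, only the ranges of Ddit3 and Chac1 overlapped among neighbours in this order. In WT, those of Atf4 and Dnajb9 and those of Dnajb9 and Ddit3 overlapped, although the order held within each library.

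Chac1 also stood apart in its level relative to its known regulators. The ratio of Chac1 to Ddit3 FPKM within a library was 0.314, 1.48 and 0.948 in KO replicates 1, 2 and 3, against 0.177, 0.137 and 0.197 in WT replicates 1, 2 and 3. All KO ratios were above all WT ratios, and KO replicate 1 was nearest to WT. The ratio of Chac1 to Atf4 was 0.0387, 0.206 and 0.203 in KO replicates 1, 2 and 3, against 0.0179, 0.023 and 0.0312 in WT replicates 1, 2 and 3. The ratio of Ddit3 to Atf4 overlapped between groups, at 0.123 to 0.214 in KO and 0.101 to 0.168 in WT. So did that of Herpud1 to Atf4, at 2.14 to 3.07 in KO and 2.01 to 4.66 in WT. These ratios were not tested.

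**Figure D2:**
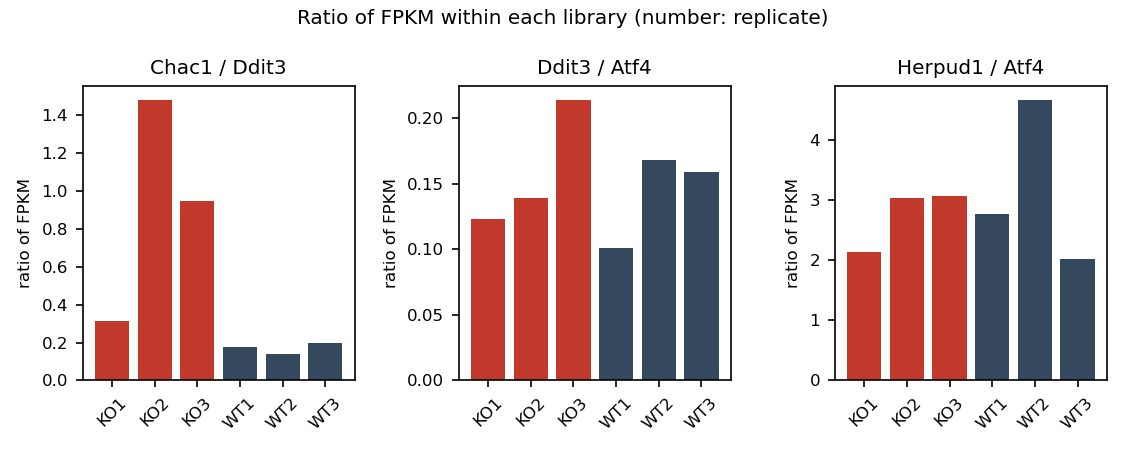
Ratio of FPKM of 2 genes within each library, for the 3 KO libraries (left, red) and the 3 WT libraries (right, dark), with the replicate number after the group. Chac1 over Ddit3 is above 0.3 in every KO library and below 0.2 in every WT library, while Ddit3 over Atf4 and Herpud1 over Atf4 overlap between groups.

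Whether the 5 genes moved together was read from the order of the libraries within each group, and no correlation between them was tested. In WT, replicate 3 was the highest library for 5 of 5 genes, as it was for 75.0% of the 156 listed genes higher in KO. In KO, replicate 3 was the highest and replicate 1 the lowest library for Atf4, Ddit3, Chac1 and Herpud1. Among the 156 genes, 21.2% had KO replicate 3 highest and 30.1% had KO replicate 1 lowest. The full pattern, with WT replicate 3 highest as well, was found in 17 of the 156 genes (10.9%), 4 of which were these 4. The pattern is the order seen in these 4 genes, so their place in it was fixed. Dnajb9 shared the highest WT library with the others and departed from them in KO, where replicate 2 was its lowest library. The lowest WT library was not common to the 5. It was replicate 2 for Atf4, Chac1 and Dnajb9 (59.0% of the 156 genes) and replicate 1 for Ddit3 and Herpud1 (33.3%). The same counts of members were found with counts per recovered depth in place of FPKM.

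The size of the shared movement differed from gene to gene. The median of the 5 genes stood at -0.51, -0.02 and 0.39 in KO replicates 1, 2 and 3, and at -1.38, -1.80 and -0.58 in WT replicates 1, 2 and 3, as log2 (FPKM + 0.1) minus the gene's KO mean. For the 156 genes higher in KO the medians were 0.05, 0.06 and -0.08 in KO, and -1.41, -1.63 and -0.84 in WT. KO replicate 1 was thus low for 4 of the 5 genes, Dnajb9 being the exception at 0.17, while the median of the wider group was near its KO mean there. KO replicate 1 and WT replicate 3 were close: their FPKM ratio was 1.11 for Atf4, 0.862 for Ddit3, 1.38 for Chac1, 1.68 for Dnajb9 and 1.18 for Herpud1. The median of that ratio over the 156 genes was 1.99. For Atf4, Ddit3, Chac1 and Herpud1 the pair holds the lowest KO and the highest WT library, which gives the smallest ratio. KO replicate 1 was the lowest KO library for 30.1% of the 156 genes. The contrast with 1.99 was thus largely fixed by the choice of libraries.

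**Figure D3:**
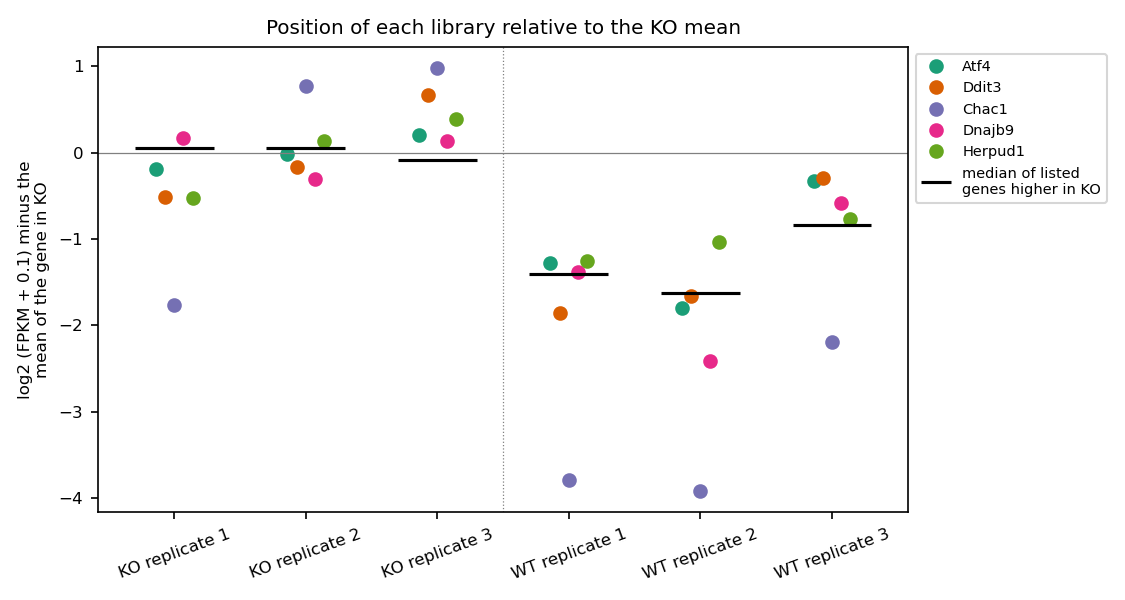
log2 (FPKM + 0.1) of each of the 5 genes minus its mean in KO, in the KO libraries (left) and the WT libraries (right), with black bars for the median of the 156 listed genes higher in KO. In KO replicate 1 the points of Atf4, Ddit3, Chac1 and Herpud1 lie below the black bar and that of Dnajb9 above it.

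Likeness of 2 genes was measured as the root mean square difference of these relative log2 values over the 6 libraries. Between members it was lowest for Atf4 and Dnajb9 (0.33) and for Atf4 and Ddit3 (0.34), and it was 0.40 for Atf4 and Herpud1. Dnajb9 and Herpud1 differed by 0.67. Chac1 differed from the other 4 by 1.58 to 1.78. For Ddit3, Atf4 was the 4th nearest of the 155 other genes higher in KO, and Herpud1 the 15th. For Atf4, Dnajb9 was the 32nd nearest and Ddit3 the 41st, and the median of the 155 was 0.43. Many listed genes outside the pathway were therefore as near to Atf4 as its fellow members. After each group's own mean was removed, the nearest member to Chac1 was Ddit3 (5th of its 155), followed by Herpud1 (9th), Atf4 (17th) and Dnajb9 (81st). Seen from Herpud1, Atf4 and Dnajb9, Chac1 was among the farthest genes, at ranks 147, 154 and 155. For Ddit3 it ranked 116th, with a difference of 0.66 beside a median of 0.56. Herpud1 ranked 86th for Atf4 and 123rd for Dnajb9 on the same measure, while Atf4 ranked 6th for Ddit3 and 9th for Dnajb9.

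The genes nearest to each member, with Atf4 near Ddit3 as the exception, were outside the stress lists, and many of them depended on the pseudocount. With a pseudocount of 1 in place of 0.1, of each member's 5 nearest genes 2 were kept for Atf4, 2 for Ddit3, 1 for Chac1, 3 for Dnajb9 and 4 for Herpud1. Nearest to Atf4 were Nudt16l1 (0.16), Rgs12 (0.16), Plekhf1 (0.19), Abcb11 (0.21), the bile salt export pump, and Col5a3 (0.22). Nearest to Ddit3 were Rgs12 (0.27), Plekhf1 (0.31), Adra1b (0.34), an adrenergic receptor of hepatocytes, Atf4 (0.34) and Gm10033 (0.34). Nearest to Dnajb9 were Gm21750 (0.20), Tmem39a (0.23), Slc22a30 (0.28), Fam72a (0.28) and Hsd3b2 (0.28). Nearest to Herpud1 were Hgfac (0.13), which encodes the activator of hepatocyte growth factor, Cish (0.23), Gm21833 (0.24), Nat8f1 (0.24) and Pygl (0.26), the liver glycogen phosphorylase. Chac1 had no near neighbour: the 5 nearest were Ptgds (0.94), Obox8 (1.03), Hcn3 (1.03), Gadd45a (1.06) and Hhex (1.13). Gadd45a, a growth arrest gene induced by stress, stood at 2.08, 4.62 and 6.91 FPKM in KO replicates 1, 2 and 3, against 0.24, 0.85 and 2.57 FPKM in WT replicates 1, 2 and 3. Like Chac1 it was lowest in replicate 1 of KO and highest in replicate 3 of both groups.

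To the mean profile of the 5, the nearest gene was Paxx (0.13), which encodes a factor of DNA end joining. Paxx stood at 9.29, 16.13 and 16.49 FPKM in KO replicates 1, 2 and 3, against 3.25, 3.29 and 7.36 FPKM in WT replicates 1, 2 and 3. Rgs12, Sult1c2, Hsd3b2, Ppp1r3b, Dsg1c, Adra1b, Serpina12, Phlda1 and Gm21750 followed at 0.34 to 0.42. With the pseudocount of 1, 3 of these 10 genes were still among the 10 nearest. Differences between groups dominate this measure, and all these genes were selected for one. Chac1 weighed most in the mean. On the log2 scale relative to its KO mean it stood at -3.79, -3.92 and -2.2 in WT replicates 1, 2 and 3. These values were lower than those of any other member in the same library. Paxx was not among the 5 nearest genes of any member taken alone.

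No other gene looked for in the integrated and ER stress response was among the 389 genes. Of 139 further gene symbols in 5 lists, 0 were among the genes analysed. The 5 members were left out of these lists and had been taken from the genes analysed. The contrast between them and the lists therefore follows in part from that choice. The lists cover kinases and factors of the integrated stress response, targets of ATF4 and CHOP, ER stress sensors, ER chaperones, and ER-associated degradation. Gadd45a, described above as induced by stress, was not on them, so their yield depends on how they were written. The authors' FDR imply 16198 tests, from which 389 genes were selected, so most genes of any list would be absent. The lists of ATF4 and CHOP targets (45 genes, among them Asns, Trib3, Atf3, Fgf21 and Gdf15) and of ER chaperones (26 genes, among them Hspa5, Hsp90b1 and Calr) gave none. The lists of NRF2 targets (21 genes) and of mitochondrial stress genes (9 genes) gave none either. Of the 139 symbols, 135 were in the annotation used. Levels of these genes are not analysed here. If they were among the genes that the authors tested, they did not meet the selection on fold change and FDR, which does not show that they were unchanged.

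Of 28 genes of glutathione and sulfur amino acid metabolism, 3 were among the genes analysed, and all 3 passed edgeR's test, as did 99.7% of the 389 genes. Chac2, which encodes the second glutathione-degrading enzyme of the Chac1 family, was higher in KO, at 24.21, 14.44 and 14.18 FPKM in KO replicates 1, 2 and 3, against 9.97, 5.63 and 7.74 FPKM in WT replicates 1, 2 and 3 (1.17 ± 0.35 on the log2 scale, SE, with an adjusted p of 0.0121 in edgeR). KO replicate 1, where Chac1 was lowest among the KO libraries, was the highest for Chac2. Oplah, which encodes the enzyme that turns 5-oxoproline, a product of Chac1, into glutamate, was lower in KO, at 22.9 ± 1.39 FPKM in KO and 64.5 ± 27.6 FPKM in WT (SD, n = 3 each). Its log2 fold change in edgeR was -1.49 ± 0.38 (SE), with an adjusted p of 0.00824. Mat1a, the liver enzyme that makes S-adenosylmethionine from methionine, was lower in KO (-1.42 ± 0.48 on the log2 scale, SE, adjusted p of 0.0176 in edgeR). Its levels were 1260 ± 176 FPKM in KO and 3400 ± 1610 FPKM in WT (SD, n = 3 each). Of 15 cytosolic heat shock genes, Hspb1 was among the genes analysed and was lower in KO, at 17.1 ± 2.6 FPKM in KO and 34.6 ± 13.6 FPKM in WT (SD, n = 3 each). Its log2 fold change in edgeR was -1.02 ± 0.35 (SE), with an adjusted p of 0.0184. Under TMM scaling Oplah, Mat1a and Hspb1 stayed lower at -0.94, -0.86 and -0.40 and did not pass (edgeR adjusted p = 0.0655, 0.158 and 0.256). With 1 library left out, Oplah passed in 6 of 6 fits. Chac2 passed in 5, all but the one without KO replicate 1 (0.87 on the log2 scale, adjusted p = 0.0575 in edgeR). Hspb1 passed in 4, and not without KO replicate 2 or KO replicate 3 (adjusted p = 0.0603 and 0.0698 in edgeR). Mat1a passed in 2, those without WT replicate 1 and without WT replicate 3, and in the other 4 its edgeR adjusted p lay between 0.0503 and 0.0856.

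The calls of the members were also counted with 1 library left out. A lost call does not show that it rested on that library, since each such fit has fewer libraries. Without KO replicate 1, Atf4 did not pass (edgeR adjusted p = 0.0531), although its log2 fold change was 1.11, beside 1.02 with all libraries. Of the 5 genes, 3 passed without KO replicate 1, 2 without KO replicate 2, 2 without KO replicate 3, 2 without WT replicate 1, 3 without WT replicate 2 and 5 without WT replicate 3. Of all 389 genes, 72.5%, 71.7%, 80.7%, 80.7%, 88.7% and 95.6% passed in these fits, in the same order. With WT replicate 3 left out, the 5 genes had a median log2 fold change of 1.83. The summed level of macrophage markers was highest in WT replicate 3. Of 14 markers, 6 were among the genes analysed, and their sum was 20.7 to 28.9 FPKM in KO, against 67.1, 30.8 and 168 FPKM in WT replicates 1, 2 and 3. Most of the sum in WT replicate 3 came from Lgals3 (76.06 FPKM), Mmp12 (53.37 FPKM) and Cd14 (23.3 FPKM). Gpnmb stood at 11.26 and 11.5 FPKM in WT replicates 1 and 3, and Itgam at 0.78 and 1.01 FPKM. None of the 6 was at 0 in any library. Lcn2, a neutrophil marker that injured liver also makes, stood at 8.02 to 12.37 FPKM in KO, against 28.76, 33.89 and 119.67 FPKM in WT replicates 1, 2 and 3. The part of these cells in the higher level of the 5 genes in WT replicate 3 was not tested.

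**Figure D4:**
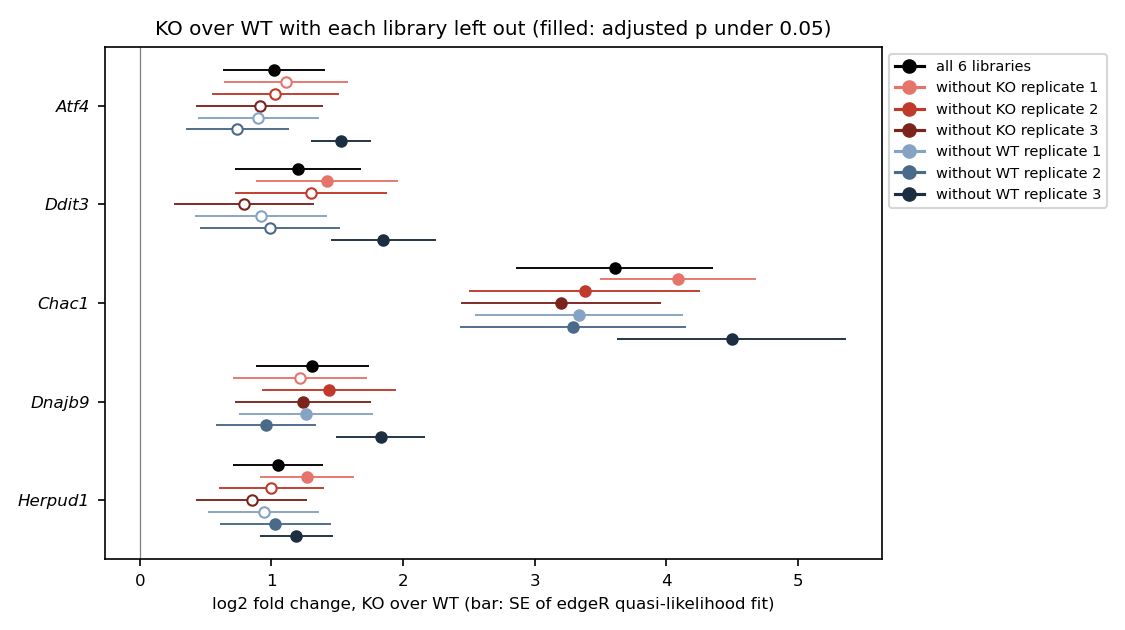
log2 fold change of KO over WT for each of the 5 genes from edgeR, with its SE as a bar, for all 6 libraries and with each library left out in turn. Filled points passed an adjusted p of 0.05 over the 389 genes. Every point lies above 0, and Chac1 is the gene with all points filled.

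The same edgeR p-values were also adjusted over 16198 genes, the number of tests implied by the FDR in the authors' deposited table, with all other genes taken as unchanged. In that case 0 of the 5 genes passed, and 5 of the 389 did (1.29%). All 5 had an unadjusted p under 0.05 in edgeR, from 0.000642 for Chac1 to 0.0307 for Ddit3. When this was done with DESeq2, Chac1 passed (adjusted p = 3.32e-05, against 0.193 in edgeR) and the other 4 did not, while 153 of the 389 genes (39.3%) passed. In the authors' deposited table the FDR was 0.00153 for Chac1, 0.000602 for Dnajb9, 0.00216 for Atf4, 0.00273 for Herpud1 and 0.0347 for Ddit3.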

How the data were processed

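Read counts and FPKM per gene were deposited by the authors for 6 liver libraries, per the file headers, together with group means of FPKM, log2 fold changes, p-values and FDR. The submitters' processing notes name HISAT2, RSEM, fastp (0.18.0) and StringTie (1.3.1). Which genome build and annotation they used, and how the p-values were made, is not stated there. The authors' p-values and FDR were used to infer the number of genes they tested, from the 19 leading genes (16194 to 16202).

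Positions come from GENCODE M21 (GRCm38). Depth was recovered as the median of count over FPKM and transcript length, in genes annotated with 1 transcript that had 50 or more counts and 1 FPKM or more. The test on counts was edgeR's quasi-likelihood test (version 4.0.16, R 4.3.3), with recovered depth as library size, no filter and no further scaling, and Benjamini-Hochberg adjustment over the 389 genes. The design foresaw this test. The SE is the absolute log2 fold change over the root of the quasi-likelihood F. DESeq2 1.42.0 and limma 3.58.1 were alternatives. Replicates of a group differed beyond sampling noise (chi-square over its degrees of freedom 45.0 to 1350).

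The genes, the lists and the tests were chosen with earlier results of these data known. Named were the 5 members, the listed genes of each pathway list, the 5 genes nearest to each member and the 10 nearest to their mean. Other lists of cell markers gave Lcn2 for neutrophils (10 genes) and none for Kupffer (10), T and B (10), stellate (10), bile duct (7) and sinusoidal endothelial cells (8).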

Additional observations from a re-analysis of the deposited data

How the results depend on the processing

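Each of the 5 genes was higher in KO under all 17 alternatives. That direction was largely fixed by the selection of the genes for this contrast, and the adjustments over 16198 genes reuse the same fold changes. The median of their log2 fold changes was 1.84 with TMM scaling, 1.82 with relative log expression factors in edgeR and with DESeq2's own factors, and 2.0 with the sum of the listed genes as library size, settings that moved the median of all 389 genes by 0.60 to 0.93, since most of the selected genes were lower in KO. It was 0.91 to 1.83 when 1 library was left out. The number of the 5 that passed was 2 to 5 when 1 library was left out, 0 with edgeR adjusted over 16198 genes (all 5 under 0.05 unadjusted) and 1 with DESeq2 so adjusted, an alternative chosen after seeing the data. Over the 389 genes, 250 passed with TMM, 236 with relative log expression, 239 with DESeq2's own factors, 181 with the sum of the listed genes, 5 with edgeR and 153 with DESeq2 adjusted over 16198, and 279 to 372 with 1 library left out. Higher and lower calls numbered 155 and 233 (39.9% higher), 156 and 94 with TMM (62.4%), 156 and 80 with relative log expression (66.1%), 156 and 83 with DESeq2's own factors (65.3%), and 154 and 27 with the sum of the listed genes (85.1%). Of the 4 further pathway genes, 1 passed under each of these scalings, 0 and 1 with edgeR and DESeq2 adjusted over 16198 (4 unadjusted in edgeR), and 2 to 4 with 1 library left out. Same-numbered KO and WT libraries did not deviate together (correlations 0.05, 0.08 and -0.03 over 389 genes). With 3 libraries a group and genes selected for the contrast, this does not settle whether the numbers pair the samples. With the replicate number as a block, 5 of the 5 genes and 382 of the 389 passed, and the median of the 5 was 1.28. Of the 4 further pathway genes 3 passed with the block, without Mat1a (adjusted p = 0.0707 in edgeR). The numbers of reads behind Chac1 (19 in its lowest library) and Ddit3 (57) limit their precision more than those of the other 3.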
